A study of Mus musculus with 5 samples.

Results

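The transcripts of YAP and TAZ, of the TEAD factors that bring them to DNA and of the vestigial-like proteins that compete for TEAD were measured in mouse eye tumors and in normal uvea. Loci were taken by gene name. The 9 genes are Yap1, Wwtr1 (which encodes TAZ), Tead1, Tead2, Tead3, Tead4, Vgll2, Vgll3 and Vgll4. They account for 10 of the 24768 loci in the deposited tables, because Tead1 names 2 loci. One group (2 libraries, here wild-type libraries 1 and 2) was uvea from adult mice of wild-type genotype. The tumor group was eye tumor tissue of adult mice with the genotype AAV5-Cre;Lats1/2 fl/fl (3 libraries, here tumor libraries 1, 2 and 3). These mice carry floxed alleles of Lats1 and Lats2 and received Cre recombinase from an adeno-associated virus. The labels name no promoter for Cre, no mouse strain, and no age beyond adult. They do not say whether a library is 1 animal, so the p-values cover the spread between these libraries only, and some of that spread may be technical.

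In the Hippo pathway the kinases LATS1 and LATS2 phosphorylate YAP and TAZ, which are then held in the cytoplasm or degraded. Unphosphorylated YAP and TAZ enter the nucleus, where they have no DNA-binding domain of their own and act mostly through TEAD proteins at a short element that reads GGAATG. Vestigial-like proteins bind the same TEAD surface: VGLL4 is known as an antagonist of YAP, VGLL2 as a partner of TEAD in skeletal muscle, and VGLL3 as a cofactor found in mesenchymal and myogenic cells. Regulation of YAP and TAZ by LATS acts on the proteins, which were not measured here.

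Libraries held 12687703 to 14368272 estimated fragments. Lats1, a targeted gene, was at 7.55 and 8.86 FPKM (fragments scaled by transcript length and by library depth) in the wild-type libraries, against 3.43, 3.90 and 2.94 FPKM in the tumors, and it fell by 1.21 on the log2 scale (standard error, SE, 0.18, edgeR adjusted p = 0.012). Lats2, the other targeted gene, differed by −0.62 (SE 0.19) and was not called (edgeR adjusted p = 0.058). The 10 melanocyte and pigment markers summed to 6609 and 6833 FPKM in wild type and to 12.6 to 81.4 FPKM in the tumors, with 2 of them at 0 in tumor library 3, and 9 of the 10 fell. The series title calls the tumors uveal melanoma. Sox10, a transcription factor of melanocytes and glia and the marker that was not called (edgeR adjusted p = 0.29), was at 84.3 and 79.3 FPKM (wild type) and 18.5, 49.1 and 1.73 FPKM (tumors), and it made up 52.6% and 60.3% of the pigment sum in tumor libraries 1 and 2. Photoreceptor markers (11) summed to 1256 and 1345 FPKM in wild type and to 2.10 to 7.60 FPKM in tumors, and markers of the retinal pigment epithelium (8) to 16556 and 16705 FPKM against 226 to 248 FPKM. Of the latter sum the locus of Rdh5, which also holds Bloc1s1, gave 228, 176 and 213 FPKM in tumor libraries 1, 2 and 3. In tumor library 1, 3 of the photoreceptor markers were at 0. The uveal samples thus also held transcripts of retinal cells. Macrophage markers (12 found) summed to 867 and 877 FPKM in wild type and to 6817, 4317 and 14138 FPKM in tumor libraries 1, 2 and 3. Epithelial markers (8, none at 0) summed to 1127 and 1143 FPKM in wild type. Of these markers 1 rose and 1 fell (12.5% each, against 18.7% and 15.4% of all tested loci). Tumor library 2, at 757 FPKM, was 3.15 times the next tumor (129 and 240 FPKM in tumor libraries 1 and 3). Most of its sum came from Krt5 (400 FPKM) and Krt14 (247 FPKM), keratins of stratified rather than simple epithelium. Fibroblast and matrix markers (9, none at 0) summed to 1780 and 1981 FPKM in wild type and to 3716, 2756 and 4527 FPKM in the tumors. Of these, 5 rose and 1 fell (55.6% and 11.1%, against 18.7% and 15.4% of all tested loci). In bulk tissue such as this, fewer cells of a type and less RNA per cell cannot be told apart.

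Of the 9 genes, 3 rose in the tumors, 1 fell and 5 did not pass the test. Vgll3, Tead4 and Wwtr1 rose, and Yap1 fell. Among all 15241 tested loci 18.7% rose and 15.4% fell, which is the background for these counts. The abundance (CPM, fragments scaled by library size) of 6 of the 9 genes did not overlap between the groups, against 70% of all tested loci.

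**Figure D1:**
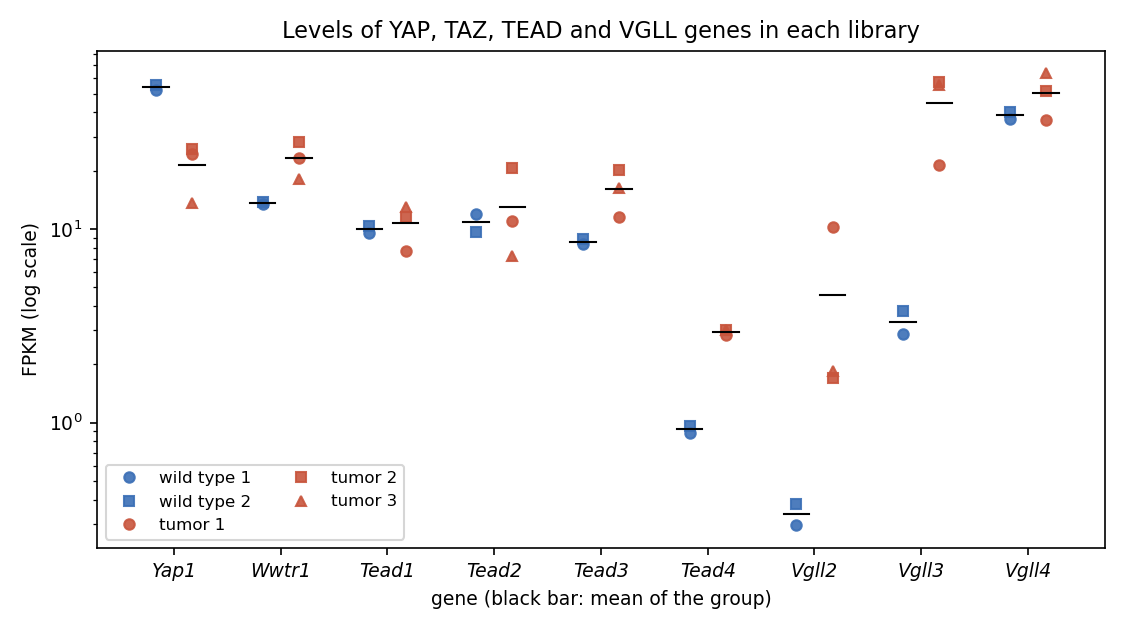
FPKM (log scale) of the 9 genes in each library; blue symbols are the 2 wild-type libraries, red symbols the 3 tumor libraries and black bars the group means. Yap1 is lower in every tumor library than in either wild-type library, whereas Wwtr1, Tead3, Tead4, Vgll2 and Vgll3 are higher, and Tead1, Tead2 and Vgll4 overlap.

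Yap1, on chromosome 9 from 7932001 to 8004596 (mm10, minus strand, up to 9 exons per transcript in GENCODE), encodes the coactivator YAP. Its level was 52.4 and 55.6 FPKM in the wild-type libraries and 24.4, 25.9 and 13.6 FPKM in tumor libraries 1, 2 and 3. Every tumor library lay below both wild-type libraries, and tumor library 3 was the lowest. The means were 54.0 ± 2.32 (SD, n = 2) and 21.3 ± 6.69 FPKM (SD, n = 3), and the log2 fold change was −1.29 with an SE of 0.31 (edgeR adjusted p = 0.035). Without tumor library 1 the fold change was −1.39 with an SE of 0.37 and did not pass (edgeR adjusted p = 0.062). The call also ended with scaling by library size alone (−1.24, edgeR adjusted p = 0.060) and with limma on log2(FPKM + 1) without a filter (−1.35, adjusted p = 0.070). Tumor library 3, the lowest in Yap1, was also the highest in summed macrophage markers, and the part of leukocyte RNA in the fall of Yap1 was not tested. Without that library the fold change was −1.06 (SE 0.14) and passed (edgeR adjusted p = 0.013). Pigment, photoreceptor and retinal pigment epithelium markers were far lower in sum in every tumor. The last of these summed to 16556 and 16705 FPKM in wild type and 226 to 248 FPKM in tumors. The part of this loss in the fall of Yap1 was not tested either.

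Wwtr1, on chromosome 3 from 57455644 to 57575910 (minus strand, up to 7 exons), encodes TAZ, the paralog of YAP. Its level was 13.5 and 13.8 FPKM in wild type and 23.4, 28.3 and 18.1 FPKM in tumor libraries 1, 2 and 3. Each tumor library thus lay above both wild-type libraries, with tumor library 3 again the lowest of the tumors. The log2 fold change was 0.82 with an SE of 0.23 (edgeR adjusted p = 0.049). This call lies at the threshold. It ended in 8 of 11 other ways of fitting all 5 libraries, at adjusted p-values of 0.05002 to 0.106 and fold changes of 0.70 to 0.86. It also ended without tumor library 1 (0.82, edgeR adjusted p = 0.090) and without tumor library 2 (0.62, edgeR adjusted p = 0.076), and it passed without tumor library 3 (0.96, edgeR adjusted p = 0.020). Wwtr1, like Tead2 and Tead3, was highest in tumor library 2, the tumor with the highest sum of epithelial markers, though below wild type. The largest values in that sum were the stratified keratins Krt5 (400 FPKM) and Krt14 (247 FPKM), so the sum does not stand for simple epithelium. Of the other markers, Cdh1 and Cldn4 were highest in tumor library 2, but Epcam and Krt18 in tumor library 1 and Krt19 in tumor library 3. Krt8 was lower in tumor library 2 (9.62 FPKM) than in tumor libraries 1 and 3 (53.5 and 15.65 FPKM). The part of epithelial cells in the levels of Wwtr1, Tead2 and Tead3 was not tested.

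Since FPKM is per length, the levels of the coactivators can be set side by side within a library. Wwtr1 made up 20.5% and 19.9% of the Yap1 plus Wwtr1 FPKM in wild type and 49.0%, 52.2% and 57.0% in tumor libraries 1, 2 and 3. In the tumors the transcripts were thus about equally abundant, whereas Yap1 exceeded Wwtr1 in wild type. The mean share was 20.2% ± 0.409 (SD, n = 2) in wild type and 52.7% ± 4.06 (SD, n = 3) in tumors, a difference of 32.5 percentage points that is larger than the spread within either group. In an exact permutation test over libraries the two-sided p, taken as the doubled one-sided p, was 0.2. It was 0.275 after Benjamini-Hochberg adjustment over 11 such quantities. With 2 against 3 libraries this doubled exact permutation p cannot go below 0.2. With any single library left out the difference was 30.4 to 34.4 percentage points. The part of the loss of retinal and pigment transcripts in the share of Wwtr1 was not tested. The sum of the 2 coactivator transcripts was 65.8 and 69.5 FPKM in wild type and 47.7, 54.2 and 31.7 FPKM in the tumors. So the rise of Wwtr1 was smaller than the loss of Yap1 in FPKM, and the summed level was lower in all 3 tumors (exact permutation p = 0.2, the floor of this test).

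**Figure D2:**
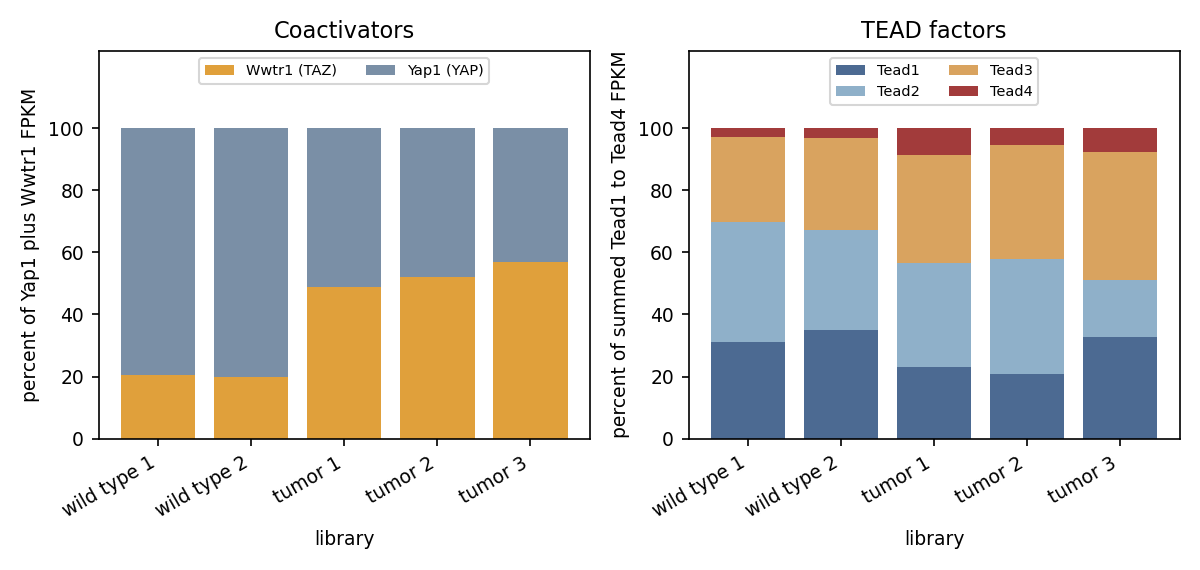
Left, percent of Yap1 plus Wwtr1 FPKM from each gene in each library; right, percent of the summed Tead1 to Tead4 FPKM from each gene. The share of Wwtr1 is near 20% in wild type and 49.0% to 57.0% in the tumors, and the shares of Tead3 and Tead4 are higher in each tumor than in either wild-type library.

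The sequences before the RefSeq starts of these genes are shown because YAP, TAZ and TEAD act through GGAATG, and the 2 coactivator genes moved in opposite directions although each has this element near its start. RefSeq promoters (GRCm38.p6, the assembly of mm10) were matched by symbol for 7 of the 9 genes, all but Tead1 and Tead4. Where the table lists more than 1 start, the window farthest upstream was used. Both windows of Wwtr1 and 2 of the 3 of Tead3 hold the element. The 250 bases before the start were searched for GGAATG and its reverse complement CATTCC, and a match is a description of the letters, not a binding site. Matches are in capitals. The window of Yap1 is chr9:8004597-8004846 and that of Wwtr1 is chr3:57575911-57576160, both on the minus strand and written 5′ to 3′ toward the gene.
Yap1: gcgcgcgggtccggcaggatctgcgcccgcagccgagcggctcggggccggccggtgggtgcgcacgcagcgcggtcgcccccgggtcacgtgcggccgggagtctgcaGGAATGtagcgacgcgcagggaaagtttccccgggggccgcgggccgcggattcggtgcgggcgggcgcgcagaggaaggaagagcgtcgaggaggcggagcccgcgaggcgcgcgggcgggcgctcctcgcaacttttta
Wwtr1: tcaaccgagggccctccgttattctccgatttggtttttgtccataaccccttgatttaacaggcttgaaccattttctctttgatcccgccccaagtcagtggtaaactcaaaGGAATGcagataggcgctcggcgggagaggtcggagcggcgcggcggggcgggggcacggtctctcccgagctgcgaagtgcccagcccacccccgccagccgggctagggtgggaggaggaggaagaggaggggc
The element begins 141 bases before the start of Yap1 and 136 bases before that of Wwtr1, in the same orientation. Yap1 has the more GC-rich window, with 76.4% G or C and 44 CpG pairs, against 61.6% and 18 CpG pairs for Wwtr1.

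The element stood in 5 of the 7 windows, those of Yap1, Wwtr1, Tead3, Vgll3 and Vgll4, and in 12.64% of 32851 windows of the same length over all genes in the table. The other 3 matches are shown with 12 bases on each side, at chr17:28350970-28350999 (minus strand) for Tead3, chr16:65815114-65815143 (plus strand) for Vgll3 and chr6:114969268-114969297 (minus strand) for Vgll4.
Tead3: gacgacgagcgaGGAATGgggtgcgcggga
Vgll3: cccgcctccccaCATTCCggctaccctgcc
Vgll4: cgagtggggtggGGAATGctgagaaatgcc
The matches of Vgll3 and Vgll4 lie inside the loci as deposited, because the RefSeq starts of these genes lie downstream of the start of the locus, and the window of Tead2 overlaps its locus by 39 bases. The windows of Tead2 and Vgll2 hold no GGAATG or CATTCC. The genes with the element include 1 that fell (Yap1), 2 that rose (Wwtr1 and Vgll3) and 2 that did not pass (Tead3 and Vgll4), so its presence did not go with 1 direction of change. All 7 windows were rich in G and C (57.2% to 76.4%, against a median of 52.4% over all windows).

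TEAD1 to TEAD4 are paralogs that share the TEA DNA-binding domain and a domain that binds YAP, TAZ and vestigial-like proteins. Tead4, the TEAD gene best known for its role in the trophectoderm of the early embryo and in muscle, was the only TEAD gene called in the edgeR fit. It lies on chromosome 6 from 128224479 to 128300813 (minus strand, up to 12 exons). Its level was 0.880 and 0.963 FPKM in wild type and 2.82, 2.99 and 2.99 FPKM in the tumors. The tumor libraries were close to each other (SD 0.1004 FPKM, n = 3) and all above wild type, and the log2 fold change was 1.75 with an SE of 0.22 (edgeR adjusted p = 0.0090). The SD of its log2 CPM over the tumors was 0.067, against 0.327 to 1.42 for the other 8 genes and a median of 0.343 over all tested loci. In wild type the SD of Tead4 was 0.115. These values rest on 214, 193 and 196 fragments in the tumors, and whether so small a spread is more than sampling was not tested.

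Tead3, on chromosome 17 from 28331378 to 28350805 (minus strand, up to 13 exons), was at 8.36 and 8.83 FPKM (wild type) and 11.6, 20.2 and 16.3 FPKM (tumor libraries 1, 2 and 3). All tumors lay above wild type, tumor library 1 the closest. The log2 fold change was 0.95 (SE 0.28), just short of the threshold (edgeR adjusted p = 0.053), and Tead3 passed without tumor library 1 (1.15, edgeR adjusted p = 0.024) and with DESeq2 over all libraries (0.91, adjusted p = 0.022). Without tumor library 2 or 3 it did not pass (edgeR adjusted p = 0.069 and 0.096).

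Tead1 and Tead2 overlapped between the groups. Tead1, on chromosome 7 from 112677907 to 112906805 (plus strand, up to 14 exons), was at 9.55 and 10.4 FPKM (wild type) and 7.66, 11.5 and 13.0 FPKM (tumors) (log2 fold change 0.15, SE 0.26, edgeR adjusted p = 0.69). Tumor library 1 lay below wild type and the other 2 above it. Tead2, on chromosome 7 from 45215753 to 45239051 (plus strand, up to 12 exons), was at 11.96 and 9.66 FPKM (wild type) and 11.0, 20.6 and 7.26 FPKM (tumors) (0.31, SE 0.48, edgeR adjusted p = 0.64). It ranged most among the tumors of the TEAD genes, with tumor library 2 high and tumor library 3 low. Without tumor library 2 its direction turned (−0.22, edgeR adjusted p = 0.60), as did that of Tead1 without tumor library 3 (−0.04, edgeR adjusted p = 0.92).

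The second locus named Tead1 has the same coordinates as the first but was estimated separately and held very few fragments, 10 and 5 in wild type and 1, 2 and 2 in the tumors, and so was not tested. Its FPKM was 6.84 and 3.69 in wild type and 0.646, 1.31 and 1.38 in tumors. At 1.46 fragments per FPKM, against 127 to 130 for the main Tead1 locus, this is a very short feature, and its FPKM was left out of the sums. On the scale of log2(FPKM + 1) with limma it had a difference of −1.54 (adjusted p = 0.020), which rests on those few fragments. It did not pass on that scale without a filter (limma adjusted p = 0.058), with edgeR without a filter (adjusted p = 0.081) or with DESeq2 (adjusted p = 0.15). The files do not say what transcript it is, and without a stated strand setting, reads of overlapping or antisense transcripts cannot be told apart.

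The shares of Tead3 and Tead4 in the summed TEAD level were higher in each tumor than in wild type, without passing a test. Tead3 gave 27.2% and 29.6% of the summed TEAD FPKM in wild type and 34.99%, 36.6% and 41.2% in tumors. Tead4 gave 2.86% and 3.23% in wild type and 8.53%, 5.42% and 7.55% in tumors. For each of these genes the groups did not overlap, with an exact permutation p of 0.2, the lowest that this test gives here, and 0.275 adjusted. Tead1 was at 31.1% and 34.9% in wild type and at 23.2%, 20.8% and 32.9% in tumors (exact permutation p = 0.4), and Tead2 at 38.9% and 32.4% against 33.3%, 37.2% and 18.3% (exact permutation p = 0.6), so both overlapped. Tead4 remained the least abundant TEAD transcript in every library. The summed TEAD level was 30.7 and 29.9 FPKM in wild type and 33.0, 55.3 and 39.6 FPKM in tumors, and Yap1 plus Wwtr1 amounted to 2.14 and 2.33 times that sum in wild type and to 1.44, 0.980 and 0.800 times in tumors. In each tumor there was less coactivator transcript per TEAD transcript than in either wild-type library (exact permutation p = 0.2, 0.275 adjusted).

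Vgll3, on chromosome 16 from 65814975 to 65866389 (plus strand, up to 4 exons), had a log2 fold change near that of Vgll2 but with a much smaller error, and it was called. Its level was 2.85 and 3.78 FPKM in wild type and 21.4, 57.5 and 55.1 FPKM in tumor libraries 1, 2 and 3. Every tumor was several times above wild type. Fibroblast and matrix markers were also higher in each tumor in sum. Of these 9 markers 5 rose and 1 fell (55.6% and 11.1%, against 18.7% and 15.4% of all tested loci). Col5a2 rose by 4.79 (edgeR adjusted p = 0.0039) and Col3a1 by 4.15 (edgeR adjusted p = 0.0076), both chosen after their values were seen. Fap fell by 1.19 (edgeR adjusted p = 0.0335), while Dcn (−1.09), Lum (−0.10) and Pdgfra (0.74) were not called. Macrophage markers were higher in each tumor in sum as well. The part of these cell types in the Vgll3 level was not tested. The log2 fold change of the fragment counts was 4.13 (SE 0.33, edgeR adjusted p = 0.0047), a 17.5-fold rise, and it was 3.92 to 4.33 with any tumor library left out, past the threshold each time. By group mean, Vgll3 moved from the seventh level of the 9 genes in wild type to the second in tumors, after Vgll4. In tumor library 1, however, it was also below Yap1 (24.4 FPKM) and Wwtr1 (23.4 FPKM). In tumor library 2 it was above Vgll4 (51.5 FPKM).

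The FPKM of Vgll3 in tumor library 1 was lower than its fragments alone would give. In CPM that library was at 139, against 237 and 211 in tumor libraries 2 and 3 and 10.2 and 12.2 in wild type. The authors' estimate assigned 1.84 times as many fragments per unit of FPKM in tumor library 1 as in the mean of wild type, while the same ratio was 0.952 to 1.10 in all libraries for the 8 other members. This ratio grows with the length of the transcripts to which the fragments were assigned. The deposited table lists 2 transcription start sites for the locus and no isoform levels, so which transcripts differ was not tested. On the scale of log2(FPKM + 1) the difference was 3.29 (limma adjusted p = 0.0083).

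**Figure D3:**
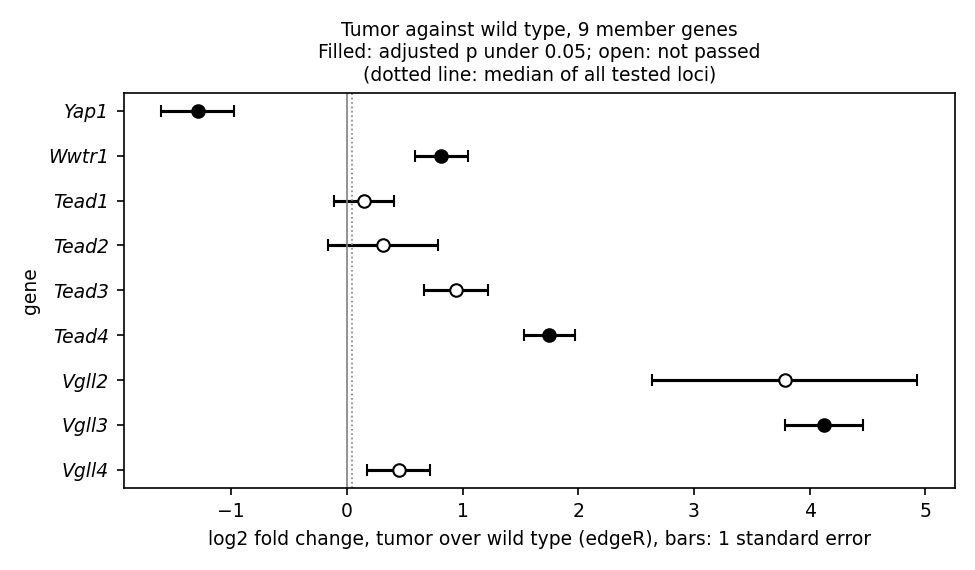
Log2 fold change of the 9 genes, tumor over wild type, from edgeR on fragment counts, with bars of 1 standard error; filled symbols passed an adjusted p of 0.05, open ones did not, and the dotted line is the median of all tested loci. Yap1 alone lies below 0, at −1.29, and Vgll3, at 4.13, has a far shorter bar than Vgll2, at 3.79.

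Vgll2, on chromosome 10 from 52022686 to 52028471 (plus strand, up to 3 exons), had 5 and 6 fragments in wild type and 183, 30 and 31 in tumor libraries 1, 2 and 3. In FPKM these are 0.295 and 0.382 in wild type and 10.2, 1.70 and 1.84 in tumors. All tumors were above wild type, and tumor library 1 was far above the other tumors. The fitted difference of 3.79 (log2, SE 1.14) missed the threshold (edgeR adjusted p = 0.058). Without tumor library 1 it was 2.42 (SE 0.43) and passed (edgeR adjusted p = 0.032), and it also passed without tumor library 2 (4.17, edgeR adjusted p = 0.045) and with DESeq2 over all libraries (3.78, adjusted p = 0.0028). It missed the threshold without tumor library 3 (4.15, edgeR adjusted p = 0.053), with limma-voom (3.20, adjusted p = 0.17) and with limma on log2(FPKM + 1) (1.72, adjusted p = 0.11).

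Tumor library 1 was also the one rich in skeletal muscle transcripts. The 14 skeletal muscle markers summed to 821 and 791 FPKM in wild type, to 10588 FPKM in tumor library 1 and to 632 and 620 FPKM in tumor libraries 2 and 3. Of these markers 2 were at 0 FPKM in each wild-type library, 1 in tumor library 2 and 0 in the other tumors. Of 13 tested, 2 rose (Myh2 and Myog) and 0 fell. The 15.4% that rose is below the 18.7% of all tested loci. Myog, a transcription factor of muscle differentiation, followed Vgll2 at 0 and 0.126 FPKM in wild type and 14.6, 1.68 and 2.35 FPKM in tumors, and it rose (log2 fold change 6.56, edgeR adjusted p = 0.045). In tumor libraries 2 and 3 the sum was below wild type, but the markers differed: 5 of the 14 (Acta1, Myh1, Myh2, Myod1 and Myog) were above both wild-type libraries in both of these tumors, as Vgll2 was, and 7 were below. The part of muscle RNA in the Vgll2 values was not tested.

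**Figure D4:**
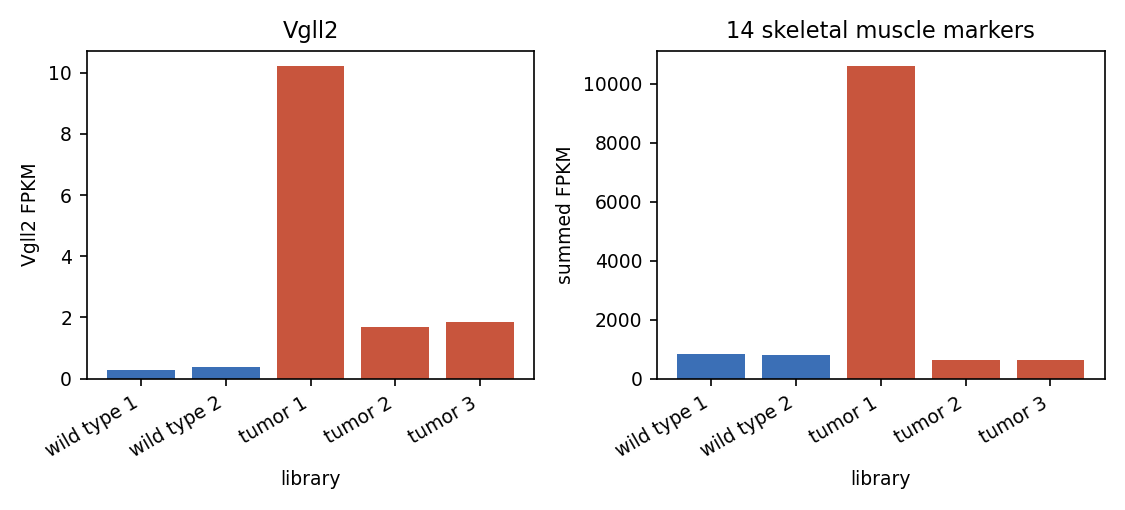
Left, Vgll2 FPKM in each library; right, summed FPKM of 14 skeletal muscle markers in the same libraries (blue bars wild type, red bars tumors, both axes linear from 0). Tumor library 1 stands above all others in both panels, and tumor libraries 2 and 3 exceed wild type in Vgll2 but not in the sum of the markers, of which 5 do exceed it in both.

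Vgll4, on chromosome 6 from 114643097 to 114969975 (minus strand, up to 5 exons), was the most abundant vestigial-like transcript in every library but tumor library 2, where Vgll3 was higher. It was at 37.1 and 40.1 FPKM (wild type) and 36.4, 51.5 and 63.6 FPKM (tumors). Tumor library 1 lay below both wild-type libraries and the others above, and the fitted difference of 0.45 (log2, SE 0.27) missed the threshold (edgeR adjusted p = 0.25). Without tumor library 1 it passed (0.65, edgeR adjusted p = 0.048). Per summed TEAD FPKM, Vgll4 was at 1.21 and 1.34 in wild type and 1.10, 0.932 and 1.60 in tumors, which overlap (exact permutation p = 0.8). Vgll3 per summed TEAD FPKM went from 0.0927 and 0.127 to 0.648, 1.04 and 1.39, so in tumors the 2 cofactor transcripts were of similar abundance, with 0.588, 1.12 and 0.867 Vgll3 per Vgll4, against 0.0768 and 0.0944 in wild type (exact permutation p = 0.2 for both, 0.275 adjusted). Vgll1, a further vestigial-like gene that is not among the 9, had 1 fragment in wild-type library 1 and 0 in the other libraries. A count of 0 does not show that the transcript is absent.

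The order of the levels changed between the groups. In wild type it ran from Yap1 (54.0 FPKM) through Vgll4 (38.6), Wwtr1 (13.7), Tead2 (10.8), Tead1 (9.98), Tead3 (8.59), Vgll3 (3.32) and Tead4 (0.922) to Vgll2 (0.339). Only Tead2 and Tead1 overlapped with their neighbour in that order. In the tumors it ran from Vgll4 (50.5 FPKM) through Vgll3 (44.7), Wwtr1 (23.2), Yap1 (21.3), Tead3 (16.0), Tead2 (12.9), Tead1 (10.7) and Vgll2 (4.58) to Tead4 (2.93). There every gene overlapped with the next, so the tumor order does not hold between neighbours. Genes farther apart could be separate, as were Vgll4 (lowest 36.4 FPKM) and Wwtr1 (highest 28.3 FPKM).

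The rest of the pathway was described by lists, from upstream to downstream. Of 28 tested Hippo kinases and regulators 10 rose (35.7%, against 18.7% of all tested loci) and 2 fell (7.14%, against 15.4%), including the targeted gene Lats1, with a median log2 fold change of 0.14 against 0.05 over all tested loci. Rassf1, a scaffold for the MST kinases, rose by 2.16 (edgeR adjusted p = 0.0039) and Frmd6, a FERM protein upstream of them, by 1.84 (edgeR adjusted p = 0.0057). Dchs1, an atypical cadherin, fell by 1.22 (edgeR adjusted p = 0.033). Of 14 genes that hold, modify or degrade YAP and TAZ, 3 rose and 2 fell (median 0.11), or 21.4% and 14.3%, near the 18.7% and 15.4% of all tested loci. The 14-3-3 gene Ywhah rose by 1.20 (SE 0.16, edgeR adjusted p = 0.0095), from 60.3 and 61.8 to 124, 139 and 144 FPKM, and the 14-3-3 gene Ywhag rose by 0.72 (edgeR adjusted p = 0.026). 14-3-3 proteins bind phosphorylated YAP and TAZ in the cytoplasm. Nlk, a kinase known to phosphorylate YAP, fell by 2.19 (SE 0.17, edgeR adjusted p = 0.0044), and Btrc, the ubiquitin ligase subunit that marks phosphorylated YAP and TAZ for breakdown, fell by 1.58 (SE 0.19, edgeR adjusted p = 0.0081). Btrc was at 10.3 and 11.3 FPKM (wild type) and 3.04, 4.26 and 3.27 FPKM (tumors).

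Among 13 tested DNA-binding partners of YAP and TAZ other than TEAD, 4 rose and 1 fell (median 0.18), or 30.8% and 7.69%, against 18.7% and 15.4% of all tested loci. Runx1 rose by 2.88 (SE 0.38, edgeR adjusted p = 0.0095), Runx2 by 2.81 (SE 0.43, edgeR adjusted p = 0.013, at 1 of its 2 loci, the other not tested) and, chosen after its values were seen, Runx3 by 5.21 (SE 0.89, edgeR adjusted p = 0.016). Runx3 was at 0.392 and 0.376 FPKM (wild type) and 5.92, 8.96 and 26.6 FPKM (tumors). RUNX genes are also expressed in leukocytes, and Runx3 was highest in tumor library 3, which had the most macrophage transcripts and, at 84.2 FPKM against 42.3 and 34.0 FPKM in tumor libraries 1 and 2 and 6.37 and 6.35 FPKM in wild type, the most T, NK and B cell transcripts (9 markers, none at 0), so their part in the rise was not tested. Tbx5 fell by 4.98 (SE 1.28, edgeR adjusted p = 0.040), to 0, 0.249 and 0.0238 FPKM in tumors.

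Of 17 tested further partners of TEAD, 6 rose and 2 fell (median 0.13), or 35.3% and 11.8%, against 18.7% and 15.4% overall. Mef2a, a muscle and stress transcription factor, rose by 1.02 (edgeR adjusted p = 0.016) and the AP-1 gene Fosl1 by 4.11 (edgeR adjusted p = 0.020), to 0.650 to 1.499 FPKM. Ncoa1, a p160 coactivator that can bind TEAD, fell by 2.16 (SE 0.26, edgeR adjusted p = 0.0081), and Irf2bp1 fell by 1.18 (edgeR adjusted p = 0.014). Of 11 tested chromatin cofactors 1 rose and 1 fell (median −0.22), or 9.09% each way, below the same background. Smarca4, the BRG1 ATPase, fell by 1.03 (edgeR adjusted p = 0.029), and the locus that rose holds Cdk9 together with 2 microRNA genes (0.70, edgeR adjusted p = 0.034), and its FPKM in tumor library 2, at 527, stood far from 28.1 and 36.5 in the other tumors.

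Of 22 YAP/TAZ-TEAD target genes 9 rose, 3 fell and 10 did not pass, with a median log2 fold change of 1.11. That is 40.9% up and 13.6% down, against 18.7% and 15.4% of all tested loci. Amotl2, Lats2 and Ptpn14 stand both in this list and in that of Hippo kinases and regulators. The rise of Amotl2 (1.71, edgeR adjusted p = 0.028) thus counts in both lists, and Lats2, a targeted gene, is among the targets that did not pass. Ankrd1, among the most used YAP targets, was at 0.382 and 0.154 FPKM (wild type) and 96.4, 69.4 and 62.0 FPKM (tumors) (log2 fold change 8.15, edgeR adjusted p = 0.0033), and Rbms3, which encodes an RNA-binding protein, rose by 1.87 (edgeR adjusted p = 0.0094). Dock5, an exchange factor for Rac, fell by 1.71 (edgeR adjusted p = 0.017) and Crim1, a membrane protein that binds bone morphogenetic proteins, fell by 2.203 (edgeR adjusted p = 0.018). The targets summed to 817 and 846 FPKM in wild type and to 1280, 2096 and 1846 FPKM in tumors, so their sum was higher in each tumor while the summed coactivator transcripts were lower. The fibroblast and matrix markers were higher in each tumor in sum as well, and their part in the target levels was not tested.

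The loci most like Yap1 and Wwtr1 in pattern were found by the root mean square difference of centred log2 CPM over the 5 libraries, among 8879 loci with a mean of at least 4. For Yap1 they were Aldh4a1 (0.0733), the locus of Armcx5 and Gprasp1 (0.0749) and Rora (0.0979). Col27a1 (0.0354), Ankrd13b (0.0389) and Abcb10 (0.0415) were closest to Wwtr1.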

How the data were processed

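RNA-seq of 2 wild-type uveal and 3 eye tumor libraries was analysed. The tools named in the submitters' processing notes are Cuffdiff, Cufflinks 2.2.1 and TopHat2 2.0.9, and the build is mm10. Their roles, the annotation, any read filter and the strandedness of the counting are not stated there. The authors deposited estimated counts of fragments and FPKM per library, the FPKM after their scaling (factors 0.931 to 1.06, the ratio of deposited raw to scaled signal). The condition name gives each library's group; the table's replicate numbers start at 0 and are tied to no label, so libraries are numbered in table order. Libraries of a group differed by more than sampling noise (chi-square per degree of freedom 5.56 in wild type and 108 to 139 in tumors). Locus starts were written 1-based, since 8948 starts were 1 below RefSeq and 572 equal to it.

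Counts were rounded, loci without a gene name left out (1.52% to 4.37% of fragments), and 15241 of 23141 named loci kept by filterByExpr (minimum count 10). Tumor was compared with wild type by the edgeR 4.0.16 quasi-likelihood test with TMM scaling under R 4.3.3, two-sided, with Benjamini-Hochberg adjustment over all tested loci and a threshold of 0.05. Log2 fold changes are edgeR values; their SE is the fold change over the root of F. All values called CPM use TMM. Proportions used FPKM and exact permutation tests (scipy 1.17.1). On simulated data of 14967 loci for this comparison the test recovered 91.7% of 96 loci changed 32-fold and 28.6% of 98 loci changed 4-fold. Of the 4-fold changes 88.8% had an unadjusted p under 0.05 (edgeR). Far more loci were called in the real data (5201), where the adjustment is less strict, so these shares do not give its sensitivity. Alternatives used DESeq2 1.42.0 and limma 3.58.1.

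The genes, lists and tests were chosen with earlier results of these data known. Named were the 9 genes, Lats1 and Lats2, the 2 called loci of smallest p per pathway list and direction, marker lists that set 1 tumor apart or move with a named gene, and the 3 loci most like Yap1 and Wwtr1.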

Additional observations from a re-analysis of the deposited data

How the results depend on the processing

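Over 21 alternatives, Tead4 and Vgll3 kept their direction, and their calls ended in 2, the edgeR fits with 1 wild-type library, in which the lone library is assumed to vary like the tumors. In those fits edgeR called 0 loci of all (4085 and 3996 at an unadjusted p under 0.05), with 2 of the 9 genes higher and 1 lower at an unadjusted p under 0.05. DESeq2 in the same libraries, added after the data were seen, called 2799 and 2830 loci, with 2 of the genes higher and 0 lower. The count of genes that rose was 3, with 0 to 5 when a single library was left out; it was 5 with DESeq2 and 5 with DESeq2 without tumor library 1. The count that fell was 1, with 0 to 1 when a single library was left out; it was 0 with library size alone, 0 with log2(FPKM + 1) without a filter, and 2 with log2(FPKM + 1) or log2(FPKM + 0.1) above a mean of 1 FPKM, where the second Tead1 locus is the added one. With a single library left out Tead1 ran from −0.035 (without tumor library 3) to 0.34 and Tead2 from −0.221 (without tumor library 2) to 0.59 (−0.052 and −0.228 with DESeq2 without the same libraries), and Vgll4 per summed TEAD FPKM, −0.0617 in tumor minus wild type, ran from −0.258 to 0.0784 (0.00546 without wild-type library 2). The calls of all loci that rose fell from 2852 to 1765 with log2(FPKM + 1) without a filter. No paired analysis was possible because the replicate numbers of the deposited table are tied to no label.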

Other observations

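The same measure of likeness was computed for the other members, whose nearest loci are given here as values chosen after they were seen. Tead4 was nearest to P4ha1, a collagen prolyl hydroxylase subunit (root mean square difference 0.0492), and to Itgb1, the beta 1 integrin (0.0592), which rose by 1.69 and 1.66 (edgeR adjusted p = 0.0055 and 0.0076). Vgll2 was nearest to Nrap, a striated muscle gene (0.221), then to the Ugt1a gene cluster (0.235) and to Hspb7, another muscle gene (0.260). Nrap was at 1.70 and 2.55 FPKM (wild type) and 44.5, 6.10 and 6.76 FPKM (tumor libraries 1, 2 and 3), without passing the test (edgeR adjusted p = 0.086). Tead3 was nearest to Junb (0.0745), an AP-1 gene that rose by 1.00 (edgeR adjusted p = 0.044). Vgll3 was nearest to Dok3 (0.233), which rose by 3.90 (edgeR adjusted p = 0.00295). Dok3 was at 2.78 and 3.11 FPKM (wild type) and 38.1, 42.2 and 47.2 FPKM (tumors). Tead1 was nearest to Ssh1 (0.0302), Tead2 to Syt11 (0.139) and Vgll4 to Zdhhc18 (0.0292).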
